A study of Mus musculus with 6 samples.

Results

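The genes described here are 33 enzymes, inhibitors and helper proteins that cut, protect or crosslink the extracellular matrix, taken by gene symbol out of 28789 genes in the deposited table. Cells were of the TCMK1 line, mouse renal tubular epithelial cells, and every sample received angiotensin II (Ang II), a vasoactive peptide. The genotype under study was YOD1 overexpression (3 libraries), and cells labelled control, likewise given Ang II, were its comparison (3 libraries). YOD1 is a deubiquitinase, and the series sets out to find pathways it regulates in such cells, under a title about renal fibrosis. The labels give neither the means of overexpression nor a vector for the controls. They also leave the origin of the replicates unstated, so a p-value here speaks of the spread among these libraries, and that spread could be technical.

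The amount of matrix around a tubule depends on its assembly and its removal. Matrix metalloproteinases and ADAMTS proteases cut collagens and proteoglycans, plasminogen activators turn plasminogen into the broad protease plasmin, and tissue inhibitors of metalloproteinases (TIMPs) block the metalloproteinases. Inside the cell, prolyl and lysyl hydroxylases and the chaperone HSP47 prepare procollagen. Outside it, procollagen proteinases trim the chains, and lysyl oxidases and transglutaminase crosslink them. In kidney fibrosis, several of these genes are widely used as markers of matrix build-up.

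Poly(A) RNA levels were given as FPKM, fragments per unit of transcript length and of mapped fragments, so levels of different genes can be set side by side. FPKM summed to between 326137 and 352209 in the YOD1 libraries and between 314172 and 320924 in the controls, and the number of reads behind a value is unknown. Yod1 itself stood at 1.73, 7.56 and 1.86 FPKM in the YOD1 libraries, against 0.842, 0.757 and 0.684 FPKM in the controls (adjusted p = 0.141 in limma). Of 13 markers of renal tubular epithelium, 12 were detected at 1 FPKM or more in at least 3 libraries. Their summed level was 848 to 1110 FPKM in the YOD1 libraries and 752 to 879 FPKM in the controls, mostly Krt18, and Lhx1 stayed under 0.2 FPKM. The 7 fibroblast markers summed to 2.91 to 4.62 FPKM in the YOD1 libraries and 3.64 to 5.06 FPKM in the controls, and 1 of them, Pdgfrb, passed the same filter. The 6 endothelial markers summed to 1.52 to 2.42 FPKM in the YOD1 libraries and 0.847 to 1.53 FPKM in the controls. The 7 macrophage and leukocyte markers summed to 28.9 to 40.6 FPKM in the YOD1 libraries and 25.6 to 36.2 FPKM in the controls. Most of that sum was Lyz2 and Cd68. Lyz2 stood at 10.5 to 18.7 FPKM in the YOD1 libraries and 1.47 to 9.04 FPKM in the controls (groups apart). Cd68 stood at 12.3 to 15.3 FPKM in the YOD1 libraries and 12.6 to 22.9 FPKM in the controls. Of the 7, 4 passed the same filter, namely Lyz2, Cd68, Csf1r and C1qa. Csf1r stood at 4.14 to 4.93 FPKM in the YOD1 libraries and 3.88 to 4.98 FPKM in the controls. C1qa stood at 1.05 to 2.48 FPKM in the YOD1 libraries and 0.717 to 1.99 FPKM in the controls. Ptprc and Adgre1 stayed under 0.2 FPKM, and Itgam did not exceed 0.262 FPKM. The part of these marker genes in the results was not tested, and in such bulk RNA fewer cells of a type and less RNA per cell cannot be told apart. Genes of rRNA origin held 2.19% to 4.03% of the FPKM sum in the YOD1 libraries and 0.423% to 0.735% in the controls.

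Across the 33 genes, levels spanned from 0 to 467 FPKM. Of them, 25 reached 1 FPKM in 3 or more of the 6 libraries and were tested with limma on log2(FPKM + 1) among 11483 genes. None of the 25 passed an adjusted p of 0.05 in either direction, against 0.444% of all tested genes called higher (51 genes) and 0.0348% called lower (4 genes). With each library corrected for transcript length and GC content, all genes gave 26 higher and 7 lower calls. At an unadjusted p under 0.05, 0 of the 25 were higher and 5 were lower (20%), where all tested genes gave 7.87% and 13.0%. The authors' deposited table marks none of the 33 as significant, against 0.660% of its genes marked higher and 0.333% marked lower, and its lowest q among the 33 was 0.163, for Timp2. Its unadjusted p, from a test not named, was under 0.05 in both directions. Those genes were Timp2, Loxl3, Mmp11 and Adamts4 on the lower side, and Lox, Timp3 and Serpinh1 on the higher. The share of all genes at that threshold was not counted. Tested members whose 3 YOD1 libraries lay wholly above the controls numbered 1 (Serpinh1), against 9.77% of all tested genes. Wholly below lay 6 (24%), namely Timp2, Loxl3, Mmp11, Loxl2, Adamts4 and P4ha1, against 19.1% of all tested genes. The median log2 fold change of the 25 was -0.01, with 12 values above 0 and 13 below, beside a median of -0.10 over all tested genes. Without control replicate 3 the test called 1 member, Adamts1, as lower, and in that fit 1.26% of all tested genes were called higher (145 genes) and 0.845% lower (97 genes).

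**Figure D1:**
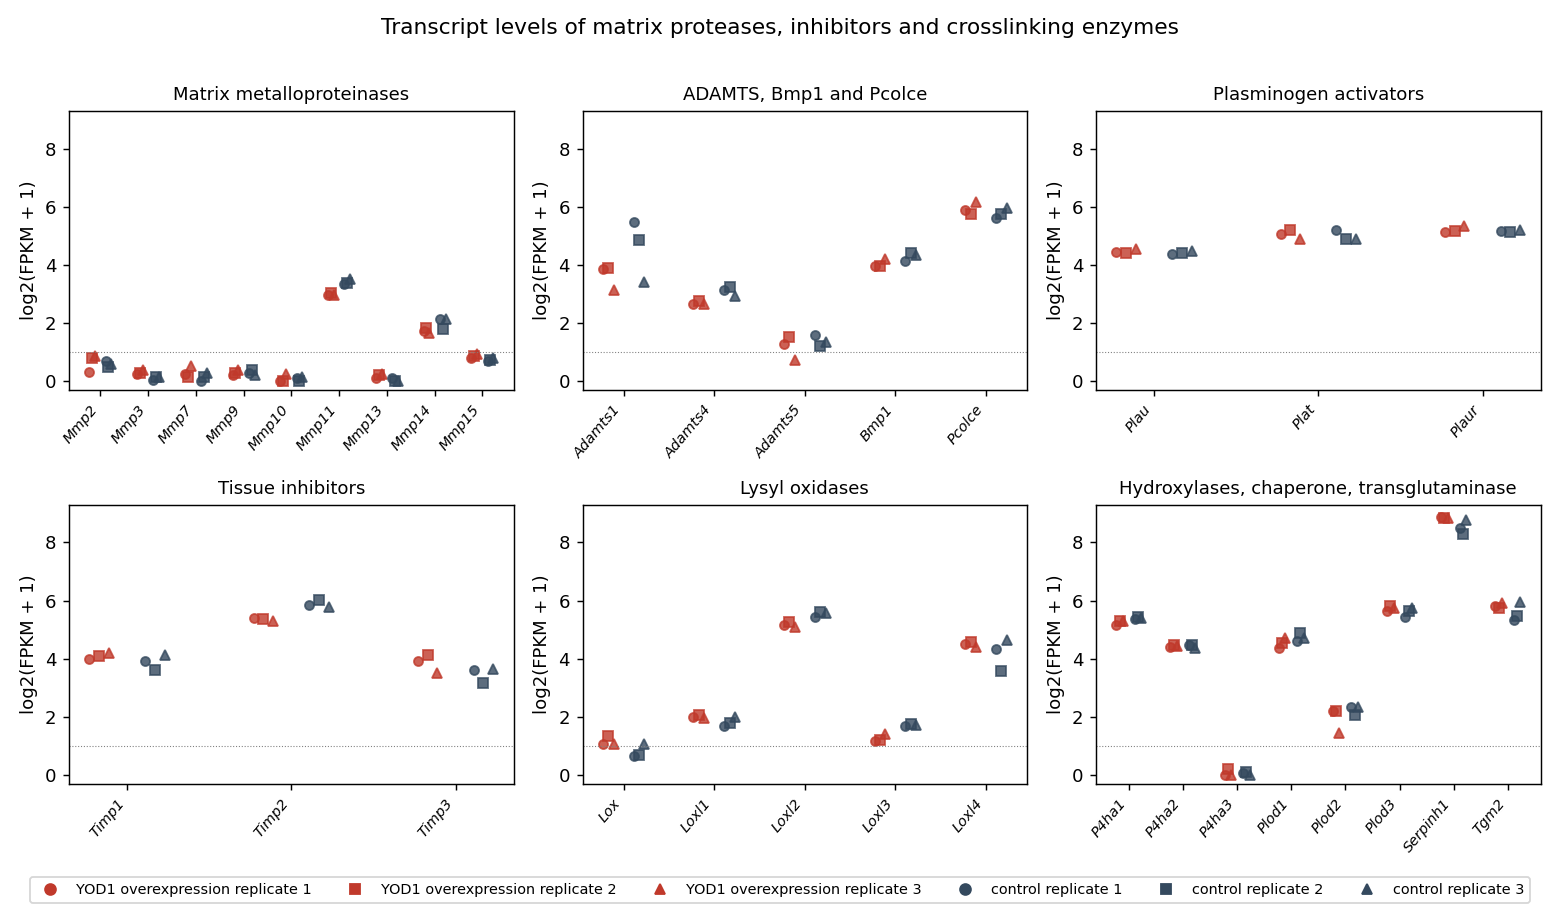
Level of each of the 33 genes in each library as log2(FPKM + 1), by role, with YOD1 overexpression (red) left of control (dark) and symbols for replicate numbers. The dotted line marks 1 FPKM. Serpinh1 is the highest gene in every library, while 7 of the 9 matrix metalloproteinases lie below the line in every library.

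Among the 9 matrix metalloproteinases, Mmp11 and Mmp14 were the ones at 1 FPKM or more, and both had lower values with YOD1 overexpression. Mmp11, stromelysin-3, which is activated inside the cell by furin-type convertases, stood at 6.81, 7.22 and 6.73 FPKM in the YOD1 libraries, against 9.13, 9.29 and 10.5 FPKM in the controls. All YOD1 libraries lay below all controls. Its log2 fold change was -0.42 (95% interval -0.73 to -0.12), and it did not pass over all genes (adjusted p = 0.151 in limma). Mmp14, the membrane-type enzyme that activates pro-MMP2 at the cell surface, stood at 2.28, 2.54 and 2.14 FPKM in the YOD1 libraries, against 3.39, 2.45 and 3.42 FPKM in the controls. Control replicate 2 lay within the YOD1 range, and the log2 fold change was -0.29 (95% interval -0.66 to 0.07, adjusted p = 0.314 in limma). Mmp11 made up 56.0% to 64.1% of the summed FPKM of the 9 genes in the YOD1 libraries and 64.4% to 69.9% in the controls.

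The other 7 metalloproteinases were too low to be tested. Mmp15, a second membrane-type enzyme, reached 0.930 FPKM at most, and Mmp2, gelatinase A, 0.816 FPKM. Mmp9 (gelatinase B), Mmp7 (matrilysin), Mmp3 and Mmp10 (stromelysins) and Mmp13 (a collagenase) stayed at or under 0.441 FPKM in every library. Mmp3 stood at 0.177, 0.221 and 0.303 FPKM in the YOD1 libraries, against 0.0327, 0.106 and 0.114 FPKM in the controls. Its groups did not overlap, as was so in this direction for 5.07% of all genes below the filter with a value above 0, and in a fit without a filter it did not pass (adjusted p = 0.305 in limma). Mmp13 stood at 0.0775, 0.164 and 0.173 FPKM in the YOD1 libraries and was listed at 0.0861, 0 and 0 FPKM in the controls, so that the groups overlapped. Mmp10 was listed at 0 in 3 of the 6 libraries. The 8 untested members, P4ha3 being the other one, all had a higher mean in the YOD1 libraries, and in 7 of the 8 YOD1 replicate 3 was highest. The means were nearly equal for Mmp9 (0.223 FPKM in the YOD1 libraries, 0.216 FPKM in the controls) and Mmp10 (0.061 and 0.0587 FPKM). Mmp10 was listed at 0 in YOD1 replicates 1 and 2, and P4ha3 in YOD1 replicates 1 and 3. Of the 17306 genes below the filter with a value above 0, 49.1% had a higher mean in the YOD1 libraries, and 13.9% were highest in YOD1 replicate 3.

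Promoter sequences of the low metalloproteinases are shown beside those of better expressed members. Mmp13, Mmp3, Mmp10 and Mmp7 lie close together on chromosome 9 in GENCODE M21, Mmp3 next to Mmp10 with 0 protein-coding genes between them. The RefSeq promoter table for GRCm38.p6 held 20 of the 33 genes, and the 250 bases before each start were searched on both strands for 5 motifs. The AP-1 motif TGANTCA was present in 5 of the 20, the 4 cluster genes and Plaur, and in 6.75% of all 32851 promoters in the table. Mmp7 has 2 promoters there, and the matches lie in 1 of them. The letters TATAAA were present in 6 of the 20, the 4 cluster genes, Adamts1 and Plod1, and in 12.4% of all promoters. The GC box GGGCGG was present in 15 of the 20, in none of the 4 cluster genes, and in 32.7% of all promoters. The cAMP response element TGACGTCA was in none of the 20 (1.55% of all promoters), and the heat shock element GAANNTTC was in Mmp10 alone (6.69% of all promoters). A match is a description of letters and not a binding site. The motifs were not chosen independently of the genes.

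The promoters of 3 cluster genes are shown, followed by those of 3 members at 6 FPKM or more, with every motif match in capitals. They lie at chr9:7272264-7272513 on the plus strand, chr9:7445572-7445821 on the plus strand, chr9:7502092-7502341 on the plus strand, chr10:75932503-75932752 on the minus strand, chrX:20869916-20870165 on the plus strand and chr7:99353240-99353489 on the minus strand (GRCm38.p6). Each is written 5′ to 3′ on the gene's strand and ends at the base before the annotated start.
Mmp13: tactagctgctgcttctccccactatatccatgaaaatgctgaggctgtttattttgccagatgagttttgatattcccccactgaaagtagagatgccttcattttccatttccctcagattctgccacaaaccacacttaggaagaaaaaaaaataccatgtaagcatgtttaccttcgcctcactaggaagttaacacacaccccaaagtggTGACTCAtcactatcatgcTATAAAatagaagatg
Mmp3: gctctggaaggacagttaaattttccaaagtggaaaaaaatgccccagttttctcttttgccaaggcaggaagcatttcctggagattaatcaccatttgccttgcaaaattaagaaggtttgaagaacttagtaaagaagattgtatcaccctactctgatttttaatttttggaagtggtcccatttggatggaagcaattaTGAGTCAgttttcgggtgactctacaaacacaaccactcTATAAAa
Mmp10: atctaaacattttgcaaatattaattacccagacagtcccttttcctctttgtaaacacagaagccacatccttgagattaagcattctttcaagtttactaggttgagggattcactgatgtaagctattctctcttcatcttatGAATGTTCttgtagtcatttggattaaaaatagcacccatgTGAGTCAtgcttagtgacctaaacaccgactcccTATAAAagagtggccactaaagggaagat
Mmp11: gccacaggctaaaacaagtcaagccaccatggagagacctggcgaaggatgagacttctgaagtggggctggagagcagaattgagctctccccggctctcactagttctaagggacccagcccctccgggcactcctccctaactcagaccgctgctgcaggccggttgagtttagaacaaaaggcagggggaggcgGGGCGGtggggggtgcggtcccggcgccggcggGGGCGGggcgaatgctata
Timp1: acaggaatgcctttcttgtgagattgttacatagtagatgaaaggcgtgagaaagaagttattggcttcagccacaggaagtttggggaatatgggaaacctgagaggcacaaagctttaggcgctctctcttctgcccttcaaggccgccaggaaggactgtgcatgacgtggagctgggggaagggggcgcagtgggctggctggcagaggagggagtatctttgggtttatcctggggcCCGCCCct
Serpinh1: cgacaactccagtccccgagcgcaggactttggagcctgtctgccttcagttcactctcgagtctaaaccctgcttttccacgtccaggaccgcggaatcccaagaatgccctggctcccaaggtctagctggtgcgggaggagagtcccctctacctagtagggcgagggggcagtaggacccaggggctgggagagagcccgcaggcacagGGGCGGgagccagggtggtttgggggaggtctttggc
In the first 3, the AP-1 match lies upstream of TATAAA, and the third also holds a heat shock element match. In the last 3, the capitals mark GC boxes only, read on either strand. Not every better expressed member is of that kind. Adamts1, at 7.71 FPKM or more in every library and not shown, held TATAAA and 3 GC boxes.

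ADAMTS proteases cleave aggrecan and versican, and neither they nor the procollagen C-proteinase genes passed with all 6 libraries. Adamts4, an aggrecanase, stood at 5.23, 5.73 and 5.30 FPKM in the YOD1 libraries, against 7.77, 8.49 and 6.53 FPKM in the controls. All YOD1 libraries lay below all controls, with a log2 fold change of -0.42 (95% interval -0.76 to -0.08, adjusted p = 0.179 in limma). Adamts1, which also cleaves versican, had the widest interval of the 25. It stood at 13.4, 13.8 and 7.71 FPKM in the YOD1 libraries, against 43.4, 28.2 and 9.69 FPKM in the controls. Control replicate 3 fell among the YOD1 libraries, far below the other controls. Over all 6 libraries the log2 fold change was -0.97 (95% interval -1.96 to 0.02, adjusted p = 0.247 in limma). Without control replicate 3 it was -1.55 and passed (adjusted p = 0.0361 in limma), and without control replicate 1 it was -0.53 (adjusted p = 0.552 in limma). Among the 15 alternatives run, the call without control replicate 3 was the sole call of any member. Adamts5, the next protein-coding gene to Adamts1 on chromosome 16 and another aggrecanase, stood at 1.43, 1.88 and 0.664 FPKM in the YOD1 libraries, against 2.03, 1.29 and 1.57 FPKM in the controls. Its groups overlapped, YOD1 replicate 3 being the lowest library for both neighbours. The log2 fold change of Adamts5 was -0.20 (95% interval -0.69 to 0.28, adjusted p = 0.601 in limma), and it was 0.02 without YOD1 replicate 3 and 0.15 after correction for transcript length and GC content.

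Bmp1, the procollagen C-proteinase that also activates lysyl oxidase, averaged 15.5 ± 1.64 FPKM in the YOD1 libraries and 18.6 ± 1.97 FPKM in the controls (SD, n = 3 each). Its log2 fold change was -0.24 (95% interval -0.56 to 0.07, adjusted p = 0.327 in limma), and it was -0.14 with median-ratio scaling and -0.06 after correction for transcript length and GC content. Pcolce, an enhancer of that proteinase, was the most abundant gene of this role, with 57.7, 52.9 and 70.6 FPKM in the YOD1 libraries, against 48.1, 52.3 and 61.8 FPKM in the controls. The groups overlapped, and the log2 fold change was 0.15 (95% interval -0.18 to 0.49), or 0.04 without YOD1 replicate 3.

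None of the plasminogen activators or their receptor passed, and their groups overlapped. Plau, the urokinase activator, averaged 21.0 ± 1.05 FPKM in the YOD1 libraries and 20.5 ± 0.822 FPKM in the controls (SD, n = 3 each). Plat, the tissue-type activator, averaged 32.5 ± 3.51 FPKM in the YOD1 libraries and 31.2 ± 4.34 FPKM in the controls. Plaur, the urokinase receptor, stood at 34.0, 34.9 and 39.0 FPKM in the YOD1 libraries, against 35.3, 34.2 and 35.5 FPKM in the controls. Log2 fold changes were 0.03, 0.06 and 0.04 for Plau, Plat and Plaur (adjusted p from 0.833 to 0.889 in limma), and the 95% intervals of the 3 genes lay within -0.26 to 0.38. With median-ratio scaling the values were 0.14 for Plau, 0.165 for Plat and 0.15 for Plaur, and Plat stood at 0.26 after correction for transcript length and GC content (adjusted p = 0.217 in limma).

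Among the tissue inhibitors Timp2 had a lower mean in the YOD1 libraries, and Timp1 and Timp3 had overlapping groups. Timp2, which inhibits metalloproteinases and also takes part with MMP14 in activating pro-MMP2, stood at 40.8, 39.9 and 38.7 FPKM in the YOD1 libraries, against 55.9, 64.2 and 54.3 FPKM in the controls. All YOD1 libraries lay below all controls, and the spread among YOD1 libraries was small. It had the lowest p of the 25 tested members (rank 186 of 11483), with a log2 fold change of -0.53 (95% interval -0.80 to -0.26), and it did not pass over all genes (adjusted p = 0.0884 in limma). The value kept its sign in every alternative fit, from -0.58 to -0.42, and the adjusted p ranged from 0.0693 to 0.319 in limma. As the groups of Timp2 lay apart, leaving out a library could not turn that sign. Timp1, the inducible inhibitor, stood at 14.9, 16.2 and 17.3 FPKM in the YOD1 libraries, against 14.0, 11.3 and 16.3 FPKM in the controls. Timp3, which binds to the matrix, stood at 14.0, 16.4 and 10.4 FPKM in the YOD1 libraries, against 11.1, 7.95 and 11.5 FPKM in the controls. Their log2 fold changes were 0.22 (95% interval -0.14 to 0.57) and 0.38 (95% interval -0.07 to 0.82). Without control replicate 2 they were 0.085 for Timp1 and 0.22 for Timp3. After correction for transcript length and GC content they were 0.10 for Timp1 and 0.59 for Timp3 (adjusted p = 0.708 and 0.0733 in limma). Timp1 lies inside Syn1 on the opposite strand, a gene at 3.83 FPKM in the YOD1 libraries and 3.34 FPKM in the controls, and the library strand is not stated.

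Because library scaling cancels within a library, proportions inside a family, and the ratio of Serpinh1 to P4ha1, were also compared. They were chosen after the values were seen and carry no test. A dependence of fold changes on transcript length, described below, does not cancel, and these proportions were not corrected for it. Timp2 made up 58.6%, 55.1% and 58.3% of the summed FPKM of Timp1, Timp2 and Timp3 in the YOD1 libraries, against 69.1%, 77.0% and 66.1% in the controls. The groups did not overlap, as was already so for Timp2 itself. The summed FPKM of the 9 metalloproteinases over that of the 3 inhibitors was 0.153, 0.166 and 0.181 in the YOD1 libraries, against 0.175, 0.159 and 0.192 in the controls, with overlapping groups. Both sums were lower in the YOD1 libraries. They came to 11.6 ± 0.797 FPKM in the YOD1 libraries and 14.4 ± 1.24 FPKM in the controls for the metalloproteinases, and to 69.5 ± 3.03 FPKM in the YOD1 libraries and 82.1 ± 1.26 FPKM in the controls for the inhibitors (SD, n = 3 each).

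**Figure D2:**
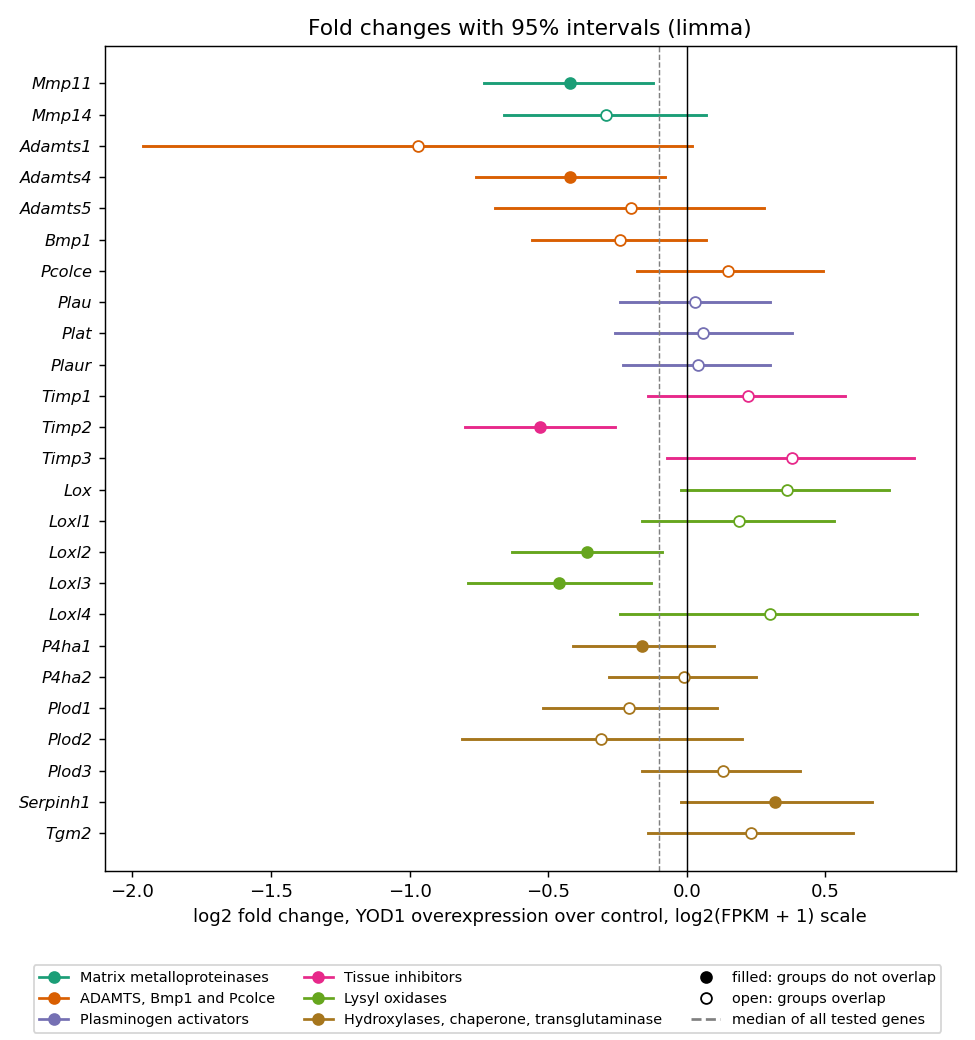
Log2 fold change of each of the 25 tested genes (YOD1 overexpression over control, log2(FPKM + 1) scale) with its 95% interval from limma, coloured by role, filled where groups do not overlap. The interval of Timp2 lies farthest from 0, at -0.80 to -0.26, and that of Adamts1 is the widest, at -1.96 to 0.02.

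Lysyl oxidases, which oxidise lysines of collagen and elastin so that fibres crosslink, also went in both directions. Loxl2, the most abundant of the 5, stood at 35, 37.5 and 33 FPKM in the YOD1 libraries, against 41.9, 47.3 and 46.8 FPKM in the controls. Loxl3 stood at 1.23, 1.29 and 1.68 FPKM in the YOD1 libraries, against 2.22, 2.35 and 2.32 FPKM in the controls. For both genes all YOD1 libraries lay below all controls. The log2 fold change was -0.36 for Loxl2 (95% interval -0.63 to -0.09, adjusted p = 0.162 in limma) and -0.46 for Loxl3 (95% interval -0.79 to -0.13, adjusted p = 0.146 in limma). After correction for transcript length and GC content Loxl2 stood at -0.17 (adjusted p = 0.304 in limma). Loxl3 overlaps Htra2 on the opposite strand, a gene at 44.2 FPKM in the YOD1 libraries and 28.9 FPKM in the controls, so reads in the overlap cannot be assigned without strand.

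Lox, the founding enzyme of the family, was scarce. It stood at 1.09, 1.54 and 1.10 FPKM in the YOD1 libraries, against 0.571, 0.615 and 1.09 FPKM in the controls. Control replicate 3 lay just above the lowest YOD1 library, and the log2 fold change was 0.36 (95% interval -0.02 to 0.73, adjusted p = 0.256 in limma). With a pseudocount of 0.1 FPKM it was 0.68 (adjusted p = 0.268 in limma), and with the length and GC correction 0.61 (adjusted p = 0.1 in limma). Loxl1, known for elastic fibres, averaged 3.02 ± 0.129 FPKM in the YOD1 libraries and 2.55 ± 0.411 FPKM in the controls (SD, n = 3 each). Loxl4 stood at 21.6, 22.6 and 19.9 FPKM in the YOD1 libraries, against 19.1, 10.9 and 24.1 FPKM in the controls, so that the controls held both the highest and the lowest library. Its log2 fold change of 0.30 (95% interval -0.24 to 0.83) became -0.01 without control replicate 2 and 0.53 without control replicate 3. Loxl2 made up 56.5%, 56.8% and 56.3% of the family's summed FPKM in the YOD1 libraries, against 63.5%, 74.3% and 60.5% in the controls. The ratio of Loxl3 to Lox was 1.13, 0.837 and 1.53 in the YOD1 libraries, against 3.89, 3.83 and 2.13 in the controls. Neither proportion overlapped between the genotypes, and control replicate 3 was the control nearest to the YOD1 libraries in both. Each holds a gene, Loxl2 or Loxl3, whose own groups already lay apart.

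**Figure D3:**
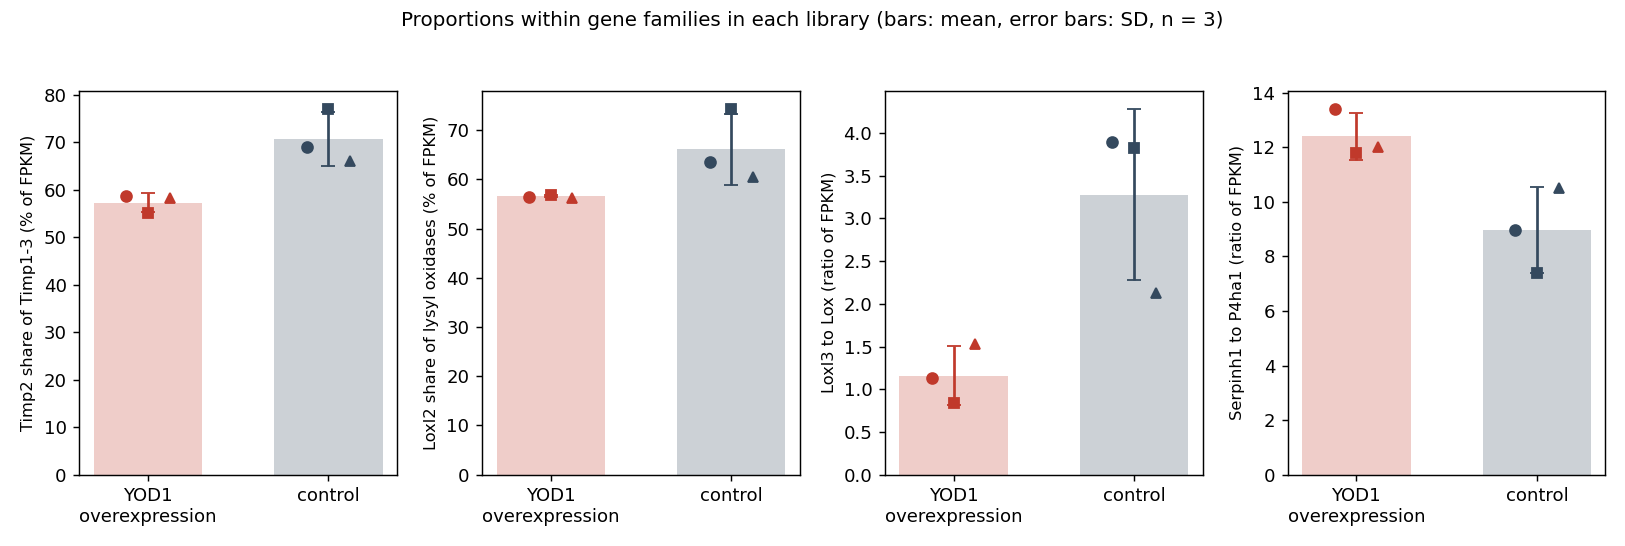
Proportions of FPKM within each library, with YOD1 overexpression left of control: the Timp2 share of the 3 Timp genes, the Loxl2 share of the 5 lysyl oxidases, and the ratios of Loxl3 to Lox and of Serpinh1 to P4ha1. Bars are means, error bars SD (n = 3), and points libraries, none of which overlap between genotypes. The genes were picked after the values were seen. Serpinh1 and P4ha1 each had groups that lay apart, in opposite directions, which fixes the separation of their ratio.

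Serpinh1 encodes HSP47, the collagen-specific chaperone of the endoplasmic reticulum, and was the highest member in every library. It stood at 467, 454 and 459 FPKM in the YOD1 libraries, against 364, 312 and 438 FPKM in the controls. All YOD1 libraries lay above all controls, although control replicate 3 came close. Its log2 fold change was 0.32 (95% interval -0.02 to 0.67, adjusted p = 0.264 in limma). Tgm2, tissue transglutaminase, which forms bonds between glutamine and lysine residues, stood at 54.8, 53.0 and 58.7 FPKM in the YOD1 libraries, against 39.5, 43.5 and 60.8 FPKM in the controls. Here control replicate 3 was the highest of the 6 libraries, and the log2 fold change was 0.23 (95% interval -0.14 to 0.60), with 0.11 without control replicate 1 and 0.41 without control replicate 3.

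Catalytic subunits of collagen prolyl 4-hydroxylase, which stabilises the triple helix, differed little. P4ha1 stood at 34.8, 38.5 and 38.1 FPKM in the YOD1 libraries, against 40.7, 42.1 and 41.6 FPKM in the controls. The groups did not overlap, yet the log2 fold change was only -0.16 (95% interval -0.41 to 0.10, adjusted p = 0.432 in limma), and it was 0.04 after correction for transcript length and GC content. P4ha2 averaged 20.5 ± 0.413 FPKM in the YOD1 libraries and 20.7 ± 0.854 FPKM in the controls (SD, n = 3 each, log2 fold change -0.01, 95% interval -0.28 to 0.25). P4ha3 did not exceed 0.159 FPKM and was listed at 0 in 3 libraries. The ratio of Serpinh1 to P4ha1 was 13.4, 11.8 and 12 in the YOD1 libraries, against 8.96, 7.41 and 10.5 in the controls. That these groups lie apart was fixed by the choice of genes, as Serpinh1 lay wholly above the controls and P4ha1 wholly below.

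Lysyl hydroxylases, which prepare collagen for glycosylation and crosslinking, all had overlapping groups. Plod1 averaged 22.3 ± 2.82 FPKM in the YOD1 libraries and 25.8 ± 2.67 FPKM in the controls, and Plod3 averaged 52.4 ± 3.27 FPKM in the YOD1 libraries and 48.1 ± 4.97 FPKM in the controls (SD, n = 3 each). Plod2, the telopeptide hydroxylase, stood at 3.60, 3.60 and 1.70 FPKM in the YOD1 libraries, against 4.07, 3.20 and 4.06 FPKM in the controls. YOD1 replicate 3 was the low library, and without it the log2 fold change of Plod2 was -0.05. With all 6 libraries, log2 fold changes were -0.21, -0.31 and 0.13 for Plod1, Plod2 and Plod3 (adjusted p from 0.405 to 0.576 in limma). After correction for transcript length and GC content Plod1 stood at -0.07 and Plod2 at -0.105.

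**Figure D4:**
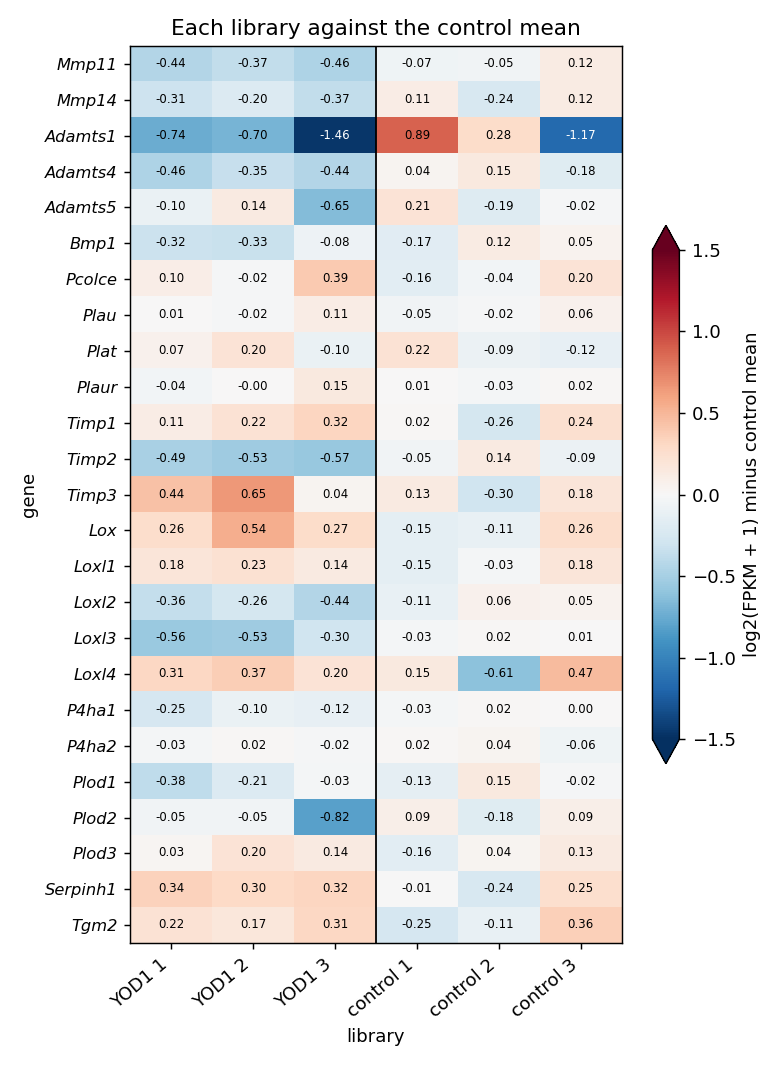
Difference of log2(FPKM + 1) from the mean of the 3 controls for the 25 tested genes (rows) in each library (columns, YOD1 left of control). Timp2 lies between -0.57 and -0.49 in the YOD1 libraries, while Adamts1 is at -1.17 in control replicate 3, among the YOD1 values.

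Control replicate 3 lay outside the range of the other controls for 18 of the 25 genes, and for 65.7% of all tested genes. In 16 of the 25 (64%) control replicate 3 was nearer than the mean of the other controls to the YOD1 mean, against 53.9% of all tested genes. YOD1 replicate 3 was the lowest library for 7 of the 25 and for 42.5% of all tested genes, and the highest for 4 of the 25 and for 16.3% of all tested genes. Over all tested genes, fold changes also ran with transcript length: the median was 0.09 in the shortest of 10 length classes and -0.30 in the longest. The class medians were -0.14 for Timp2, Loxl3 and P4ha1 (7th class), -0.20 for Adamts4, -0.23 for Loxl2 and -0.06 for Mmp11. With the correction for length and GC content, Timp2 stood at -0.42, Loxl3 at -0.33, Adamts4 at -0.26, Mmp11 at -0.42 and Serpinh1 at 0.32.

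**Figure D5:**
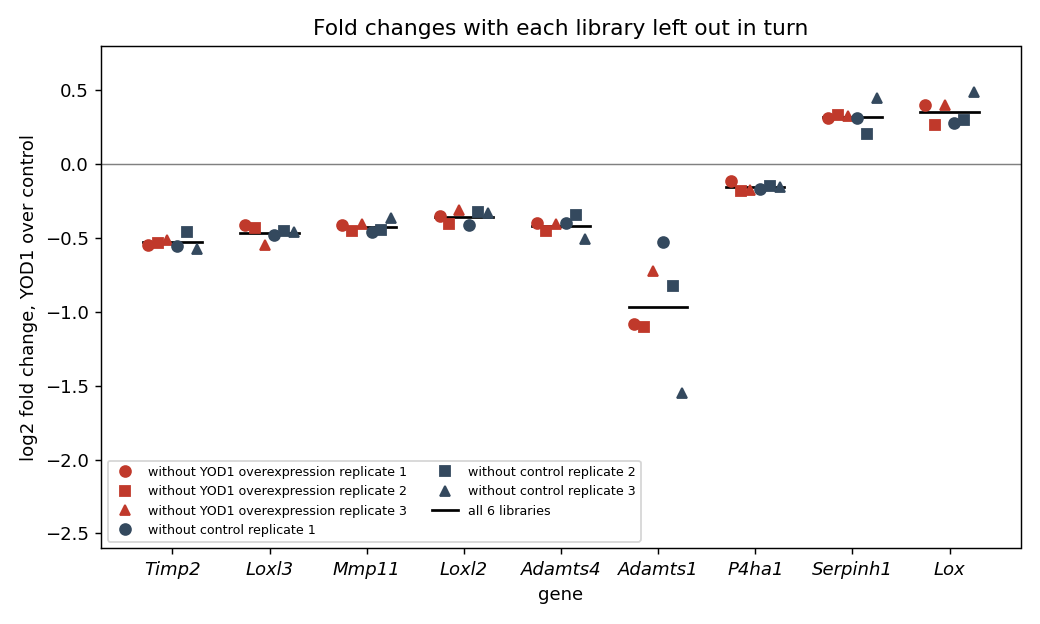
Log2 fold change of 9 genes with all 6 libraries (black lines) and with each library left out (points, YOD1 libraries red, controls dark). All 9 kept their direction, and Adamts1 ranged from -1.55 without control replicate 3 to -0.53 without control replicate 1. For all but Adamts1 and Lox the groups did not overlap, so leaving out a library could not turn the sign. Members whose sign turned when a library was left out are not shown.

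Other genes of matrix turnover were read from 4 lists, and none of their tested members passed over all genes in limma. As background, 7.87% of all tested genes were higher and 13.0% lower at an unadjusted p under 0.05 in limma. The median log2 fold change of all tested genes was -0.10. Of 26 other metalloproteinase genes, 8 were tested, with 1 higher and 0 lower at an unadjusted p under 0.05 and a median log2 fold change of -0.10. Adam8, a protease of the ADAM family, averaged 15.6 ± 1.43 FPKM in the YOD1 libraries and 10.4 ± 4.21 FPKM in the controls (SD, n = 3 each, log2 fold change 0.61, adjusted p = 0.188 in limma), with overlapping groups, as control replicate 3 stood at 15.2 FPKM. Adam10, a sheddase, had a log2 fold change of -0.45 (adjusted p = 0.285 in limma). Of 15 other inhibitors and activators, 9 were tested, with 1 higher and 1 lower at an unadjusted p under 0.05 and a median of 0.04. Cst3, the cathepsin inhibitor cystatin C, averaged 135 ± 16.0 FPKM in the YOD1 libraries and 89.7 ± 15.6 FPKM in the controls (SD, n = 3 each, log2 fold change 0.59, adjusted p = 0.116 in limma). Spint1, an epithelial serine protease inhibitor, averaged 21.0 ± 1.08 FPKM in the YOD1 libraries and 33.5 ± 8.64 FPKM in the controls (log2 fold change -0.62, adjusted p = 0.132 in limma). The groups did not overlap for Cst3 or Spint1, as was so for 9.77% of all tested genes on the higher side and 19.1% on the lower.

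Of 18 other collagen processing partners, 16 were tested, with 2 higher and 3 lower at an unadjusted p under 0.05 and a median log2 fold change of 0.01. Among all tested genes, 7.87% were higher and 13.0% lower at that threshold, with a median of -0.10. Mia3, which loads procollagen into transport carriers, averaged 4.39 ± 1.43 FPKM in the YOD1 libraries and 7.40 ± 0.417 FPKM in the controls (SD, n = 3 each, log2 fold change -0.68, adjusted p = 0.142 in limma). Ppib, cyclophilin B of the prolyl 3-hydroxylation complex, averaged 96.8 ± 10.6 FPKM in the YOD1 libraries and 73.7 ± 9.55 FPKM in the controls (log2 fold change 0.39, adjusted p = 0.180 in limma). The groups did not overlap for either gene, against 9.77% of all tested genes wholly above the controls and 19.1% wholly below. Of 16 other matrix-degrading proteases and uptake receptors, 10 were tested, with 0 higher and 1 lower at an unadjusted p under 0.05 and a median of 0.02. That 1 was Hyal1, a lysosomal hyaluronidase, at 2.23 ± 0.454 FPKM in the YOD1 libraries and 3.38 ± 0.365 FPKM in the controls (SD, n = 3 each, log2 fold change -0.44, adjusted p = 0.189 in limma). Ctsb, cathepsin B, averaged 38.7 ± 3.29 FPKM in the YOD1 libraries and 47.7 ± 4.89 FPKM in the controls (log2 fold change -0.29, adjusted p = 0.240 in limma).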

How the data were processed

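Poly(A) RNA of 6 TCMK1 samples was sequenced from both ends (Illumina), per the labels' protocols. The deposited table lists FPKM for every gene in each library, per the file headers. The authors added a fold ratio between the groups and its log2. They also deposited a p-value with its q-value, from a test they do not name. The tools in the submitters' processing notes are StringTie 1.3.0, HISAT2 2.0 and Bowtie 0.12.2, on mm8, without saying which did what. The number of per-sample columns left unused was 0. FPKM are not counts, so no count test was run.

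Values were transformed to log2(FPKM + 1), which understates changes of low genes, and a gene was kept if 3 or more libraries reached 1 FPKM. The test was that of limma 3.58.1 under R 4.3.3 (two-sided, variances moderated along an intensity trend, p adjusted over all tested genes by Benjamini-Hochberg, threshold 0.05), checked on simulated data. With 3 libraries on each side, 0.1 is the smallest p of an exact permutation test, and none was run. The members and lists were chosen with earlier results of these data known. The naming rule gave values in every library for members whose groups did not overlap and for the most abundant of each role, and named the 2 lowest p of each list; further values were added after they were seen. Alternatives were other filters, a pseudocount of 0.1, median-ratio scaling, totals without rRNA genes, splines for length and GC content (4 degrees of freedom, longest GENCODE M21 transcript, 99.2% of tested genes), no intensity trend, a further demand of 1 on the absolute log2 fold change, a block for the replicate number, and leaving out each library. Promoters came from RefSeq (GRCm38.p6), matched by symbol. That build is not mm8, so no other coordinates are given. Promoters overlapping annotated exons were not shown. Python 3.11.15, pandas 2.3.3 and matplotlib 3.10.9 were used.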

Additional observations from a re-analysis of the deposited data

How the results depend on the processing

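Of 344 member values under alternatives, 330 kept their direction and their side of the threshold, and 18 of the 25 members kept their direction in every alternative run. Part of this was fixed in advance. The other filters, the fit without an intensity trend and the replicate block leave each fold change as it was. For members whose groups did not overlap, leaving out a library cannot turn the sign. The sole new call was Adamts1 without control replicate 3, so the number of members called ranged from 0 to 1 when a library was left out and was 0 otherwise. The number of genes called over the whole table, 55, became 0 without a filter (with 3427 of 28789 at an unadjusted p under 0.05), 169 with median-ratio scaling, 34 with rRNA genes left out of the total, 33 with length and GC correction, and 19 to 242 when a library was left out (31 without control replicate 1, 19 without control replicate 2, 242 without control replicate 3, and 132 without YOD1 overexpression replicate 3). The cause was not tested. Signs turned for 7 members. With length and GC correction Adamts5 was 0.153, P4ha1 0.043 and P4ha2 0.05, with median-ratio scaling P4ha2 was 0.095, and with rRNA genes left out of the total Plau was -0.018 and Plaur -0.015. Leaving out a library gave -0.374 to 0.021 for Adamts5, -0.006 to 0.063 for Plau, -0.015 to 0.166 for Plat, -0.021 to 0.075 for Plaur, -0.010 to 0.529 for Loxl4 and -0.044 to 0.010 for P4ha2. With the replicate block 41 genes and 0 members were called. Deviations of same-numbered samples correlated with r of 0.296, -0.121 and -0.112, and not every sample correlated best with its own number, so the numbers were not taken as pairs. Depth cannot be read from FPKM, so the counting error of the low members is unknown.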
